A study of Mus musculus with 5 samples.

Results

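Gata6 is a zinc-finger transcription factor of the GATA family, and 16 of the 7737 Gata6 peaks mapped in the mouse pancreas lay at 5 loci named for genes of the endoplasmic reticulum (ER) stress response and protein folding: Xbp1, Hspa5, Herpud1, Hyou1 and Pdia4. They made up 0.207% of the list. The peaks were selected by midpoint, as all those inside a fixed window of 100 or 110 kb of the mm9 assembly at each gene. The windows ran from 5.37 to 5.48 Mb on chromosome 11 (Xbp1), 34.58 to 34.68 Mb on chromosome 2 (Hspa5), 96.86 to 96.96 Mb on chromosome 8 (Herpud1), 44.14 to 44.24 Mb on chromosome 9 (Hyou1) and 47.69 to 47.80 Mb on chromosome 6 (Pdia4). The loci were chosen with the peak list in view and a peak position is itself the measured value, so numbers, widths and distances are descriptions, and no test was made.

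The study mapped Gata6 binding across the mouse genome in pancreas tissue. Chromatin was immunoprecipitated with a Gata6 antibody from the pancreas of wild-type C57BL/6 mice in 4 libraries, 2 from animals of 5 weeks and 2 from animals of 14 weeks, and 1 further library held pooled input DNA. The deposited result was 1 list of positions with no height, score or value per library, so depth is unknown, no spread between animals could be given, and the ages could not be compared. Whole pancreas holds acinar, duct, endocrine and other cells, and the list cannot say in which of them a peak arose.

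The acinar cell of the exocrine pancreas makes and secretes large amounts of digestive enzymes and has an extensive ER. When unfolded proteins build up in the ER, sensors in its membrane start the unfolded protein response, which raises chaperones, folding enzymes and the machinery that removes misfolded proteins. Xbp1 encodes a transcription factor of this response, whose mRNA is spliced by the sensor Ire1 to give the active form. Hspa5 encodes BiP, the main Hsp70 chaperone of the ER lumen, and Hyou1 encodes a large Hsp70-related protein that serves as a nucleotide exchange factor for BiP. Pdia4 encodes a protein disulfide isomerase, and Herpud1 a membrane protein of ER-associated degradation.

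RefSeq promoter sequences of the GRCm38.p6 assembly were matched for 4 of the 5 genes, Xbp1, Hspa5, Herpud1 and Pdia4. These positions belong to another assembly than the peaks, and no peak was placed on them. The promoters of Hspa5, whose window held 1 peak, and of Herpud1, whose window held 7, are shown because each holds a full stress response element, in capitals. They give the 250 bases before the start site, at chr2:34771840-34772089 on the plus strand for Hspa5 and chr8:94386179-94386428 on the plus strand for Herpud1.
Hspa5: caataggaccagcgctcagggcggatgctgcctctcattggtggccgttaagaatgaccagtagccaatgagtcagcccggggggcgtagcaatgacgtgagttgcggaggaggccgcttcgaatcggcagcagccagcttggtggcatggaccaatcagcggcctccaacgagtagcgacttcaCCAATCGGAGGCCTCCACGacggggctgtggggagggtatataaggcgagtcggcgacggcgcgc
Herpud1: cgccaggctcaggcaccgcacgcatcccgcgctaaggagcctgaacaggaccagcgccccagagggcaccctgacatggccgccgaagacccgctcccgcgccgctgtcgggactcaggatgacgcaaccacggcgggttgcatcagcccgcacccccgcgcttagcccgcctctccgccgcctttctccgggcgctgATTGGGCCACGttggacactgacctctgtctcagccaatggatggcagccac

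In the Hspa5 promoter the capitals mark the ER stress response element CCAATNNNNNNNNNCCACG, from base -65 to -47 relative to the start site. In the Herpud1 promoter they mark the second form of this element, ATTGGNCCACG, from -52 to -42. Both were searched on both strands of 32851 promoter entries of the same length. The first was found in 37 entries (0.113%) and the second in 10 (0.0304%). The longer GATA motif, the letters GATA with A or T before them and A or G after them on either strand, was in 26.5% of entries and in none of the 4 promoters. The letters GATA alone were in 53.6% of entries and lay at -97 to -94 in the Xbp1 promoter. CCAAT, which overlaps both stress elements, was in 33.8% of entries and was found 4 times for Hspa5, 3 times for Pdia4, 2 times for Herpud1 and not for Xbp1. ACGT, the core of other elements of the response, was in 26.9% of entries and occurred 1 time each for Xbp1, Hspa5 and Herpud1. The Herpud1 match, at -44 to -41, overlaps the end of the second stress element, so it is not a separate match. A match shows that letters are present in this window, and an absent one says nothing of Gata6 binding. The search ended at the base before the start site, so an element crossing that site could not be found. In the Herpud1 promoter the CCAAT at -18 to -14 is followed, at the spacing of the first element, by CCAC, where the sequence ends. Whether Herpud1 also holds the first element was therefore not settled. The second stress element, CCAAT alone and GATA alone were added to the search after the promoters had been read. The shares over all entries were not matched for base content. G and C made up 62.4% of the Hspa5, 69.2% of the Herpud1, 65.2% of the Pdia4 and 50.4% of the Xbp1 promoter. The median over the entries was 52.4%.

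Herpud1 had the most peaks of the 5 loci, with 7, followed by Xbp1 with 4, Hyou1 with 3, and Hspa5 and Pdia4 with 1 each. Adjoining windows of the same size, laid from the first base of each of the 19 autosomes and X, gave the background. The locus windows do not fall on this grid, so none of the 5 is itself a counted window. Among 26378 windows of 100 kb, 0.0910% (24 windows) held at least the 7 peaks of Herpud1 and 2.51% (661) at least the 3 of Hyou1. Among 23980 windows of 110 kb, 1.19% (285) held at least the 4 of Xbp1. The single peaks of Hspa5 and Pdia4 were at a level that 18.4% of 100 kb windows and 19.7% of 110 kb windows reached, and these shares are the background for any locus with a peak. Together the 5 windows spanned 520 kb and held 30.8 peaks per Mb, where the genome held 2.93 per Mb, a contrast that the choice of loci with known peaks builds in. Herpud1 alone gave 7 of the 16 peaks, but 4 where only peaks at or above the list's median width were kept, beside 3 each at Xbp1 and Hyou1.

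**Figure D1:**
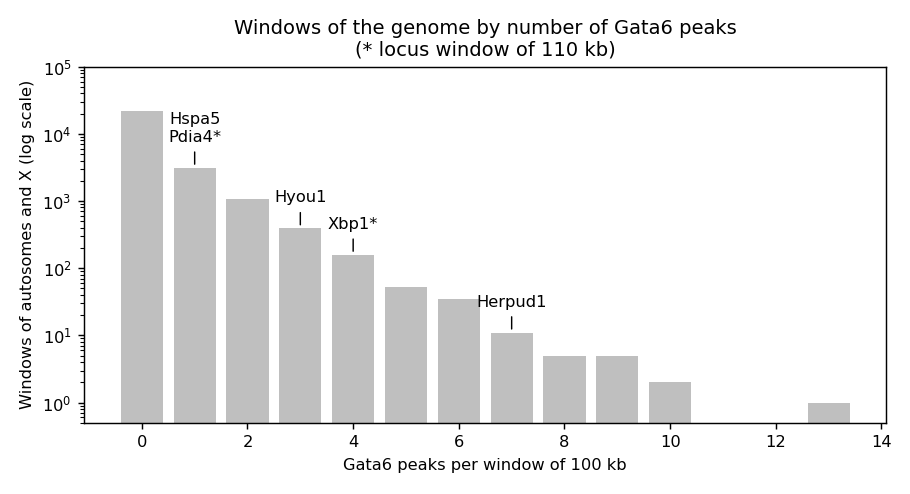
Number of 100 kb windows of the autosomes and X (vertical axis, log scale) by the number of Gata6 peaks they hold (horizontal axis), with each locus marked at its own number. Bars fall from 21529 windows without a peak to 11 with 7 peaks, the number at Herpud1, whose own window is not among the 11. The Xbp1 and Pdia4 windows measure 110 kb and are set on the 100 kb bars for display.

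**Figure D2:**
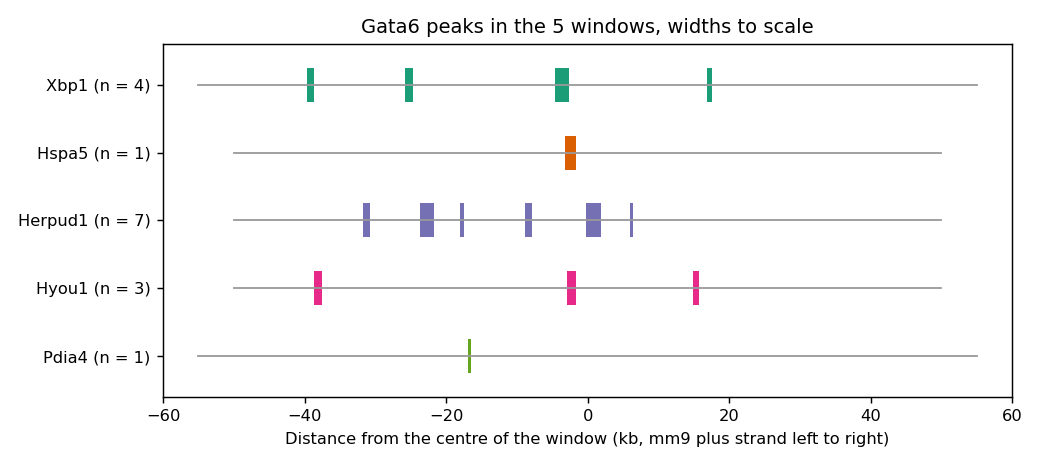
Gata6 peaks drawn to scale in the 5 windows, by distance in kb from the window centre. Herpud1 peaks crowd into 38.2 kb, and the fifth and sixth, 18 bp apart, touch at this scale. Xbp1 and Hyou1 peaks are spread over more than 50 kb, while Hspa5 and Pdia4 have 1 peak each.

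At Xbp1, the transcription factor of the group, the 4 peaks were spread over 57.2 kb. On chromosome 11 in band qA1 they lay at 5385354 to 5386326 (973 bp wide), 5399259 to 5400352 (1094 bp), 5420402 to 5422393 (1992 bp) and 5441851 to 5442546 (696 bp). Their midpoints were 14.0, 21.6 and 20.8 kb apart, so no Xbp1 peak had a neighbour within 10 kb. The third was the widest of all 16 peaks, and 1.72% of the list was at least as wide. Of the 156 windows of 110 kb with exactly 4 peaks, 9.62% (15) had a widest peak of at least 1992 bp. The third peak lay 3.6 kb below the window centre. That centre is a property of the chosen window and was not placed relative to the gene start.

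The Xbp1 window stood differently against its chromosome and against windows of the stain class of its band. On chromosome 11, which carries more peaks than the genome mean (0.586 against 0.322 per 110 kb), 2.80% of windows held 4 or more. Band qA1 is of the darkest stain class (gpos100), and among the 7533 windows of that class 0.637% did. At the other loci the share within the stain class was higher than over all windows. It was 0.130% for Herpud1, 3.08% for Hyou1 and 21.2% for Hspa5 (gneg), and 20.4% for Pdia4 (gpos66). The next peak below the window was 74.1 kb from the first Xbp1 peak, and the next above was 408 kb from the last. In the gene order of RefSeq GRCm38.p6, the protein-coding neighbours of Xbp1 are Kremen1 and Znrf3 on one side and Ccdc117 and Ankrd36 on the other. With no mm9 gene positions used here, no peak at any of the 5 loci was assigned to a gene, exon or intron, and a peak called here by a locus may lie nearer to a neighbouring gene.

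Among the chaperones, Hspa5 had 1 wide peak. It lay on chromosome 2 in band qB at 34626806 to 34628374, 2.4 kb below the window centre, and measured 1569 bp. Of the list, 4.96% was at least as wide. Of the 3120 windows of 100 kb with exactly 1 peak, 3.01% (94) had one at least this wide, and their median was 681 bp (quartiles 499 and 924). The peak was thus among the widest of such windows. The next peak above was 92.4 kb away, a distance that 25.9% of the list matched or exceeded, and the next below 1189 kb away. Its neighbours in gene order are Mapkap1 and Gapvd1 before, and Rabepk, which overlaps Hspa5 in that annotation, and Fbxw2 after.

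Hyou1, the partner of BiP, had 3 peaks. They lay on chromosome 9 in band qA5.2 at 44151363 to 44152379 (1017 bp), 44187125 to 44188344 (1220 bp) and 44204914 to 44205742 (829 bp), with 35.9 and 17.6 kb between midpoints. All were wider than the list median of 728 bp. The widest, the second, lay 2.3 kb below the window centre. Against the 391 windows with exactly 3 peaks, whose widest peak had a median of 1051 bp, it was ordinary, since 32.2% had a widest peak of at least 1220 bp.

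Just outside the Hyou1 window, a peak of 838 bp at 44113316 to 44114153 had its midpoint 26.3 kb below the edge, the closest to an edge among the peaks just outside the 5 windows. On the other side, 54.5 kb above the edge, lay a peak of 3628 bp at 44292697 to 44296324 and wider than any of the 16 peaks. Neither was a member. Just inside, the first Hyou1 peak had its midpoint 11.9 kb from the edge, the closest of all members.

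The disulfide isomerase locus, Pdia4, had 1 narrow and isolated peak. It lay on chromosome 6 in band qB2.3 at 47728085 to 47728528, 16.7 kb below the window centre, and measured 444 bp. Of the list, 86.0% was at least as wide, and 82.5% of the 2979 windows of 110 kb with exactly 1 peak had one at least as wide. Its closest neighbour was 127 kb away, and 19.9% of the list was at least that far from its nearest peak. Hspa5 and Pdia4 therefore shared a count of 1 but lay on opposite sides of the list median in width, at 1569 and 444 bp. Gm40364, Gm40363, Zfp786 and Zfp398 surround Pdia4 in gene order.

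Herpud1, the degradation factor, had the densest group. Its 7 peaks on chromosome 8, in band qC5, began at 96878165 and ended at 96916414, a span of 38.2 kb of which 18.4% was covered by peaks. The first lay at 96878165 to 96879170 (1006 bp), the second at 96886311 to 96888255 (1945 bp), the third at 96891975 to 96892522 (548 bp) and the fourth at 96901164 to 96902175 (1012 bp). The fifth lay at 96909789 to 96910147 (359 bp), the sixth at 96910166 to 96911849 (1684 bp) and the seventh at 96915918 to 96916414 (497 bp). Wide and narrow peaks were mixed, and both the narrowest of the 16 peaks and the second widest of them were in this group.

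Consecutive Herpud1 midpoints were 8.62, 4.97, 9.42, 8.30, 1.04 and 5.16 kb apart, so each followed the last within 10 kb. Joined by that limit, the list held 941 groups of 2 or more peaks. Only 4 had 7 or more, and 2 of these, the Herpud1 group among them, had exactly 7. The fifth and sixth peaks were separated by 18 bp, a gap that 20 of the 7714 neighbouring pairs of the list matched or fell under. Counted as 1 peak they leave 6, and the next smallest gap at Herpud1 was 3719 bp. Of the 11 windows of 100 kb with exactly 7 peaks, 4 had at least the 7051 bp covered at Herpud1, so its coverage was ordinary for its number.

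Beyond the window, a second group lay below Herpud1. It held 6 peaks of 425 to 1477 bp at 96696484 to 96711128, a span of 14.6 kb, and its last midpoint was 168 kb from the first Herpud1 peak. The next peak above was 342 kb from the last. In gene order, Nup93 and Slc12a3 come before Herpud1, and Nlrc5 and Cpne2 after it.

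**Figure D3:**
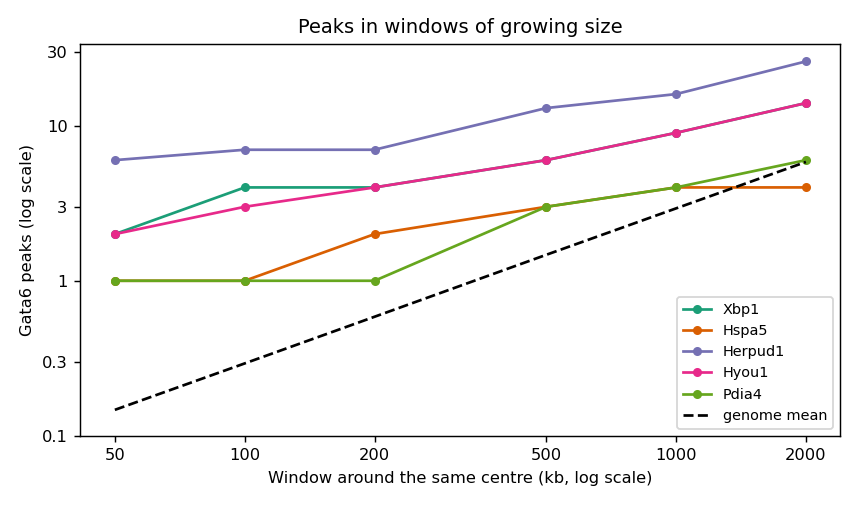
Gata6 peaks (vertical axis, log scale) in windows of 50 to 2000 kb around the same 5 centres (horizontal axis, log scale), with the mean of adjoining windows of that size as a dashed line. Herpud1 is the highest at each size, the Xbp1 and Hyou1 lines coincide from 200 kb on, and Hspa5 falls below the mean at 2000 kb.

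The order of the loci was largely kept when the windows were changed around the same centres. These windows are nested, so each count includes the peaks of the smaller windows and the kept order is partly built in. Herpud1 held 6 peaks in 50 kb, 7 in 200 kb, 13 in 500 kb and 26 in 2000 kb, and 1.68% of windows of 2000 kb held as many or more. Xbp1 and Hyou1 each held 2 peaks in 50 kb, 4 in 200 kb and 14 in 2000 kb, where 12.3% of windows held as many or more. Hspa5 and Pdia4 held 4 and 6 peaks in 2000 kb, and their shares were 51.1% and 39.7%. At that size the genome mean was 5.84 and the median 4, near the counts of Hspa5 and Pdia4 and below that of Herpud1. The 26 peaks of Herpud1 include the 7 that were selected, and its surroundings were not counted without them.

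Median width was 1009 bp for the 16 peaks (quartiles 659 and 1307, range 359 to 1992) and 728 bp for the list as a whole (quartiles 533 and 996). In 9 of the 16 the width was 1000 bp or more, against 24.7% of the list, while 5 were below the list median: Xbp1 peak 4, Herpud1 peaks 3, 5 and 7, and the Pdia4 peak. Widest per locus were 1992 bp at Xbp1, 1945 bp at Herpud1, 1569 bp at Hspa5, 1220 bp at Hyou1 and 444 bp at Pdia4. Width is not height, and the list does not say how strongly a region was enriched.

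The 16 peaks lay at a median of 14.0 kb from their nearest neighbour, midpoint to midpoint, against 31.4 kb for the list. Herpud1 and the other loci did not overlap in this measure. Its 7 peaks had their nearest neighbour 1.04 to 8.62 kb away, and the 9 peaks of the other loci 14.0 to 127 kb away, with a median of 20.8 kb. A neighbour within 10 kb was therefore present for 7 of the 16 peaks, all at Herpud1, and for 28.9% of the list. Peaks of a locus share their neighbours, so these are not independent values.

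**Figure D4:**
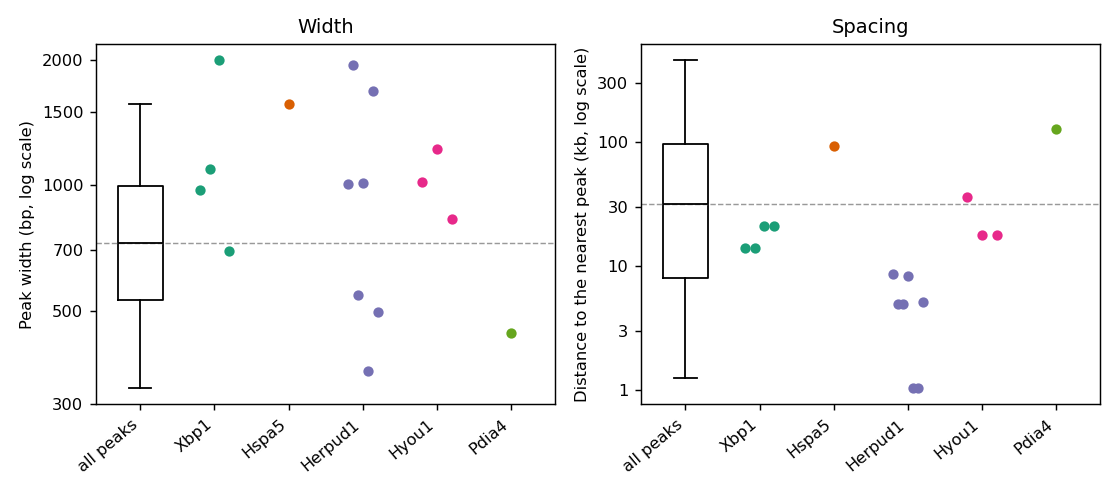
Width in bp (left) and distance to the nearest peak midpoint in kb (right), both on log scales, for all peaks and for each locus. Each point is 1 peak, boxes give the quartiles and median of the list with whiskers to the percentiles 5 and 95, and the dashed line is the list median. The Herpud1 points lie lowest in spacing, and the Hspa5 and Pdia4 points and 1 Hyou1 point lie above the list median.

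The order of lines in the list is not by position. The list consisted of 94 runs of lines, each sorted by chromosome name and start, and what separates the runs is not given in the sources used here. Hyou1 peak 2 was on line 189 in run 2 and Xbp1 peak 3 on line 236 in run 3. These were the 2 members among the first 300 of the 7737 lines. Each was also the widest of its locus. Xbp1 peak 4 followed on line 947, Herpud1 peak 4 on line 1414 and the Hspa5 peak on line 1942. The Pdia4 peak was on line 4965, and the narrow Herpud1 peak 5 on line 6804 was the last of the 16.

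In all, 9 members were in the first 3868 of the 7737 lines and 7 after them, a near even split at the middle of the list. Line number and width were weakly related over the whole list (Spearman rho = -0.20 across 7737 peaks, which share libraries and peak caller, given as a description). The median width was 788 bp in the first 3868 lines and 666 bp after them. Among members it was 1094 and 829 bp. At Herpud1 the widest peak, of 1945 bp, was on line 3999 and the sixth, of 1684 bp, on line 3713, so at that locus the widest peaks were not the earliest.

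**Figure D5:**
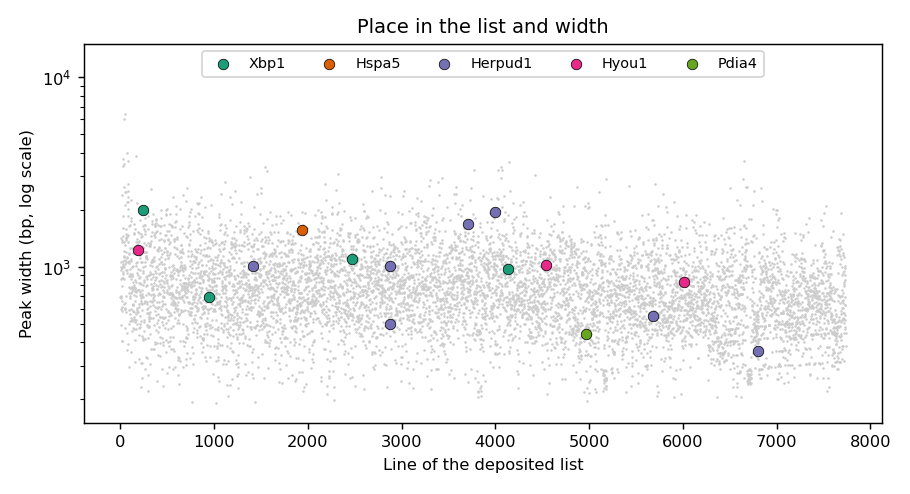
Width in bp (log scale) against the line number in the deposited list, with all peaks in grey and the 16 members coloured by locus. Members run from line 189 to line 6804, and the earliest belong to Hyou1 and Xbp1.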

How the data were processed

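Gata6 ChIP-seq of mouse pancreas gave 4 libraries and 1 pooled input library, grouped by their titles. Per the submitters' processing notes the build was mm9, and CASAVA 1.8 and BWA 0.5.9-r16 were named without their role. The authors deposited 1 list of chromosome, start and end. Of the peak caller and any pooling of libraries, nothing is given in the sources used here, and the list was read as 1 pooled result. Its name carries the label FDR1, and the threshold is not explained further. Starts were taken as 0-based and are printed 1-based.

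The members and lists were chosen with earlier results of these data known. Every peak in the 5 windows is described, and other genes only as the 2 nearest protein-coding neighbours on each side, which for Hyou1 are not reported here. A planned list of further stress genes was not used, for want of mm9 gene positions. The background was all complete adjoining windows of the same size on the 19 autosomes and X (7733 peaks), with lengths from GenomeInfoDb 1.38.1 and bands from circlize 0.4.16 in R 4.3.3. Counting used Python 3.11.15, numpy 2.4.6 and pandas 2.3.3 and was tested on simulated data. Alternatives changed the window, the grid, the merging of peaks and the part of the list used.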

Additional observations from a re-analysis of the deposited data

How the results depend on the processing

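Of 84 alternative values, 58 stayed within the limits set (1.5 times for counts and medians, the exact 95% binomial interval for shares of windows) and 26 moved. That interval is only a set limit and measures no spread, since all windows were counted and neighbouring windows are not independent. Herpud1 had the most peaks in all 7 settings for the number of peaks, but its lead shrank to 1 peak in 2 of them. With the peaks at or above the median width it had 4, and Xbp1 and Hyou1 had 3 each. With the first 3868 lines it had 4, Xbp1 3 and Hyou1 1. In windows of 50 kb Xbp1 had 2, and in windows of 200 kb Hspa5 had 2. The 16 peaks became 9 in the first 3868 lines, where Pdia4 had none. Pdia4 also had none among the peaks at or above the median width, and gave no share of windows in either setting. The share of windows with at least as many peaks moved on the same chromosome to 2.80% (Xbp1) and 19.3% (Hspa5). It moved there to 0.152% (Herpud1, 2 of 1317 windows) and 2.82% (Hyou1). Among windows with a peak it was 6.03% (Xbp1), 0.495% (Herpud1) and 13.6% (Hyou1), as empty windows drop out, and the loci with 1 peak have no informative share there. With peaks merged within 2 kb it was 0.855% (Xbp1) and 2.0% (Hyou1). With the wider peaks it was 10.3% (Hspa5), 0.360% (Herpud1) and 0.936% (Hyou1), and with the first 3868 lines 0.813% (Xbp1), 11.0% (Hspa5), 0.205% (Herpud1) and 11.0% (Hyou1). Hspa5 kept its 1 peak in both settings and Hyou1 its 3 with the wider peaks, so there the share moved because fewer peaks were counted over the genome. Median spacing to the nearest neighbour was 8.46 kb without the Xbp1 window and 8.62 kb without the Hyou1 window, as the Herpud1 peaks then form a larger share. Unknown depth limits what an absent peak shows. No paired analysis was possible because libraries have no values of their own in the list, and for the same reason none was left out in turn.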
